A study of Homo sapiens with 6 samples.

Results

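The quick run-on protocol was compared with the published one on the same nominal input of K562 cells, by the regulatory elements that dREG called from each. The elements compared were all peaks of the PRO-seq 1M list (24707) and the qPRO-seq 1M list (38177) on chromosomes 1 to 22 and X. Together they made up 62884 of the 78446 peaks in the 3 lists of the study. An overlap of 1 bp or more with the other list gave a peak a counterpart.

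K562 is an established line from a human leukaemia, with erythroid and myeloid traits, which the labels call lymphoblastoid. No group received a treatment. PRO-seq 1M stands for 2 libraries made with the published protocol from 1M permeabilized cells each, with M280 streptavidin beads, 3 affinity purifications and biotin-labelled C and U in the run-on. qPRO-seq 1M stands for 2 libraries made with the quick protocol from the same input, with MyOne C1 beads and 1 purification. Both groups had 11 cycles of PCR, and the 2 libraries of a group came from cultures of 1 cell line some passages apart. The remaining list, qPRO-seq 250k (15562 peaks, quick protocol on 250k cells, 14 cycles), took no part in the comparison and was used only to look up peaks. It shares its protocol with qPRO-seq 1M. Each group has 1 peak list for both of its libraries, so replicate error is unknown for every difference that follows and no test was run. Read depth is unknown and cannot be told apart from the protocol. The 95% intervals in parentheses cover counting error only, and adjacent peaks may depend on each other. Genes that share a peak are counted separately, and the intervals take no account of this.

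Run-on sequencing maps RNA polymerases that are engaged on DNA, and dREG recognises the places where they start from the pattern of reads on both strands. Promoters and enhancers alike usually start transcription in both directions from a core free of nucleosomes. Most broadly used human promoters lie in CpG islands, which are rich in G and C and in the dinucleotide CG, while promoters of tissue-restricted genes and most enhancers lie outside them.

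Among the markers chosen here, erythroid and megakaryocytic ones had peaks far more often than lymphoid ones, while the labels call the line lymphoblastoid. Of 19 erythroid and megakaryocytic marker genes, at least 17 had a peak within 500 bp of an annotated transcript start (a start peak) in each list. Of 9 B lymphoid markers, 2 had one in each list, and of 7 T lymphoid markers, 1 (TCF7). The erythroid and megakaryocytic panel counts HBE1 and HBG2 separately, although they share their best peak. It leaves out the lineage genes BCL11A, ERG, FLI1, HBA1 and HBA2, which had no start peak in either list.

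Because the lists differ 1.55-fold in length, results are given for lists of equal length and, where stated, for the lists as deposited. At equal length only the 24707 top-scored qPRO-seq 1M peaks are kept. This removed 13470 qPRO-seq 1M peaks (35.3%), none scoring above 0.450. The scores are the authors' and rank peaks within a list. Where a percentile is given, it is the place of a score in its own full list (100 is the highest), and percentiles of the 2 lists are not comparable. The lowest PRO-seq 1M score was 0.267.

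The sequences upstream of genes found by one protocol and missed by the other show the feature that the promoter results below turn on. The printed genes had a start peak in one list at equal length and no peak of the other full list within 1000 bp of any start. They are those with a RefSeq start within 500 bp of the peak among the 5 top-scored such genes each way, up to 3 a side. Each sequence is the 250 bases before the RefSeq start on build GRCh38.p14, read 5′ to 3′ on the strand of the gene, with CG dinucleotides in capitals. The first pair had a peak in qPRO-seq 1M and the other 3 genes a peak in PRO-seq 1M. NPM3, a histone chaperone of the nucleoplasmin family, lies on the minus strand at chr10:101783447-101783696. METTL7B, a thiol methyltransferase, lies on the plus strand at chr12:55681486-55681735. PACS1, a sorting protein of the trans-Golgi network, lies on the plus strand at chr11:66070022-66070271. PKIG, an inhibitor of protein kinase A, lies on the plus strand at chr20:44531625-44531874. ARRB2, a beta-arrestin that uncouples G protein receptors, lies on the plus strand at chr17:4710382-4710631.
NPM3: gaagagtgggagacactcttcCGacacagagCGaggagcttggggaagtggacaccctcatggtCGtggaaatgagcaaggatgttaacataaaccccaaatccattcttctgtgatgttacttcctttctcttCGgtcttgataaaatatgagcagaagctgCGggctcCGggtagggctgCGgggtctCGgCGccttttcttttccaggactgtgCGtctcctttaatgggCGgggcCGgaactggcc
METTL7B: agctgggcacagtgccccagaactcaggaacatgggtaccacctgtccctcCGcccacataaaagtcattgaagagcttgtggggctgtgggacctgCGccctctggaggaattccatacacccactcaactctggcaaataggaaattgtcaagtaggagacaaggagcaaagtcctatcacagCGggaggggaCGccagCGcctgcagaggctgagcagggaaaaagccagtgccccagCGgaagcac
PACS1: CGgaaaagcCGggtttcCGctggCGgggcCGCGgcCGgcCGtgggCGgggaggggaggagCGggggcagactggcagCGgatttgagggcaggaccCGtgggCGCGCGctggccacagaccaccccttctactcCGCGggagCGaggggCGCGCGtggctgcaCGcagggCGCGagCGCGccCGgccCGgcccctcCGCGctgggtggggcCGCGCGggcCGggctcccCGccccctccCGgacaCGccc
PKIG: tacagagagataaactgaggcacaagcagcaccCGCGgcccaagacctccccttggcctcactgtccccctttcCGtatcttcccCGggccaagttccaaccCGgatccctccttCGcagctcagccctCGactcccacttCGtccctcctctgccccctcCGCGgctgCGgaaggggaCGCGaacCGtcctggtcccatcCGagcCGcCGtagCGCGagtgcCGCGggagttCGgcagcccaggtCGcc
ARRB2: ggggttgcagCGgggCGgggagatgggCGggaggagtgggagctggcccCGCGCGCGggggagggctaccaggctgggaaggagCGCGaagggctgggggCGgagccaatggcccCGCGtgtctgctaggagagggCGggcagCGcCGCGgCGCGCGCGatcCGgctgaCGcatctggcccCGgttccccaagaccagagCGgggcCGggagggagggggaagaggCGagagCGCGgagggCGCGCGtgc

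The sequences found with qPRO-seq 1M held 12 CG dinucleotides (NPM3) and 6 (METTL7B). Those found with PRO-seq 1M held 37 (PACS1), 23 (PKIG) and 31 (ARRB2). GC content was 53.6% for NPM3 and 57.2% for METTL7B, against 80.8% for PACS1, 67.2% for PKIG and 77.2% for ARRB2. The 5 sequences were picked by peak score and illustrate the contrast in CG number and GC content. By the CpG classes defined further on, the NPM3 window (observed over expected CG of 0.762, GC 55.3%) is CpG-rich, like those of PACS1, PKIG and ARRB2. Only that of METTL7B is CpG-poor (0.238). The counts over all promoters follow further on.

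The first question was which kinds of place gained or lost peaks under the quick protocol. Peaks near a transcript start of any gene (within 500 bp, start-near) were 1.23 times as many in qPRO-seq 1M as in PRO-seq 1M, and peaks away from all starts (distal) 2.22 times. At equal length start-near peaks numbered 16822 in PRO-seq 1M and 15099 in qPRO-seq 1M (0.898 times). Distal peaks numbered 7885 and 9608 (1.22 times). The lists then have the same total, and every peak is either start-near or distal. More distal peaks therefore mean as many fewer start-near ones, and the opposite directions show only a shift in composition. The distal share was 6.97 percentage points higher in qPRO-seq 1M (6.13 to 7.81).

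Among distal peaks, intronic ones differed most between the lists. They numbered 3446 and 8196 as deposited (2.38 times) and 3446 and 4390 at equal length (1.27 times). Intergenic peaks had ratios of 2.10 and 1.20, and exonic ones 2.07 and 1.07, the last with an equal-length share that differed by 0.231 points (-0.0798 to 0.542). At equal length, the ratio was higher far from starts than near them. Intronic peaks under 5 kb from a start had a ratio of 1.19, those 5 to 10 kb away 1.35, those 10 to 50 kb away 1.36 and those beyond 50 kb 1.68. Intergenic peaks in the same distance classes had ratios of 1.09, 1.19, 1.26 and 1.27. The classes beyond 50 kb are the thinnest, with 121 and 203 intronic peaks. Intronic peaks inside protein-coding genes with a start peak in both full lists had an equal-length ratio of 1.29, as did those inside genes with none in either, and those inside no protein-coding gene 1.25.

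**Figure D1:**
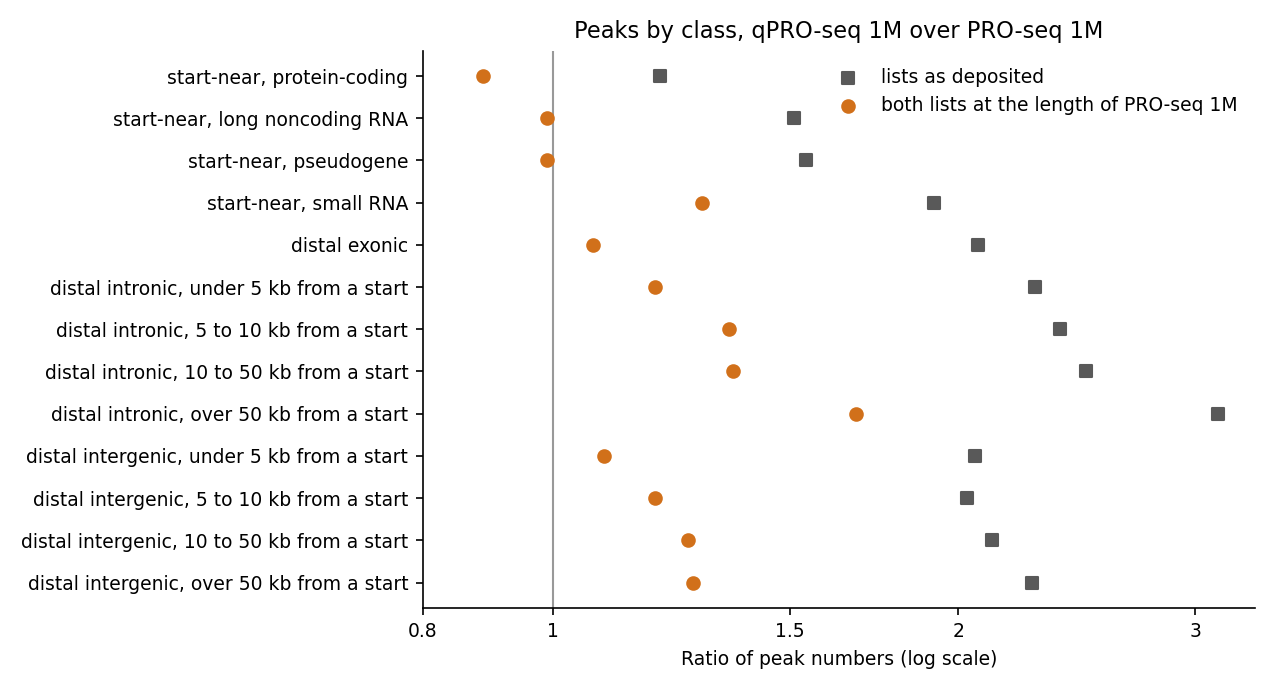
Ratio of the number of qPRO-seq 1M peaks to the number of PRO-seq 1M peaks (log axis) for 13 classes of peak, as deposited (squares) and at equal length (circles). At equal length, protein-coding start-near peaks lie at 0.886 and long noncoding and pseudogene ones at 0.990, while all distal classes lie above 1, up to 1.68.

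The difference in composition was already present among the strongest calls. Of the 2500 top-scored peaks, 10.4% were distal in PRO-seq 1M and 24.7% in qPRO-seq 1M, a difference of 14.3 points (12.2 to 16.4). Of the top 10000 peaks, 17.0% and 27.9% were distal. The same top 10000 peaks reached the starts of 7659 protein-coding genes in PRO-seq 1M and 6718 in qPRO-seq 1M. The difference was smaller the further down the lists it was taken, and stood at 8.28 points (7.37 to 9.19) for the top 20000.

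**Figure D2:**
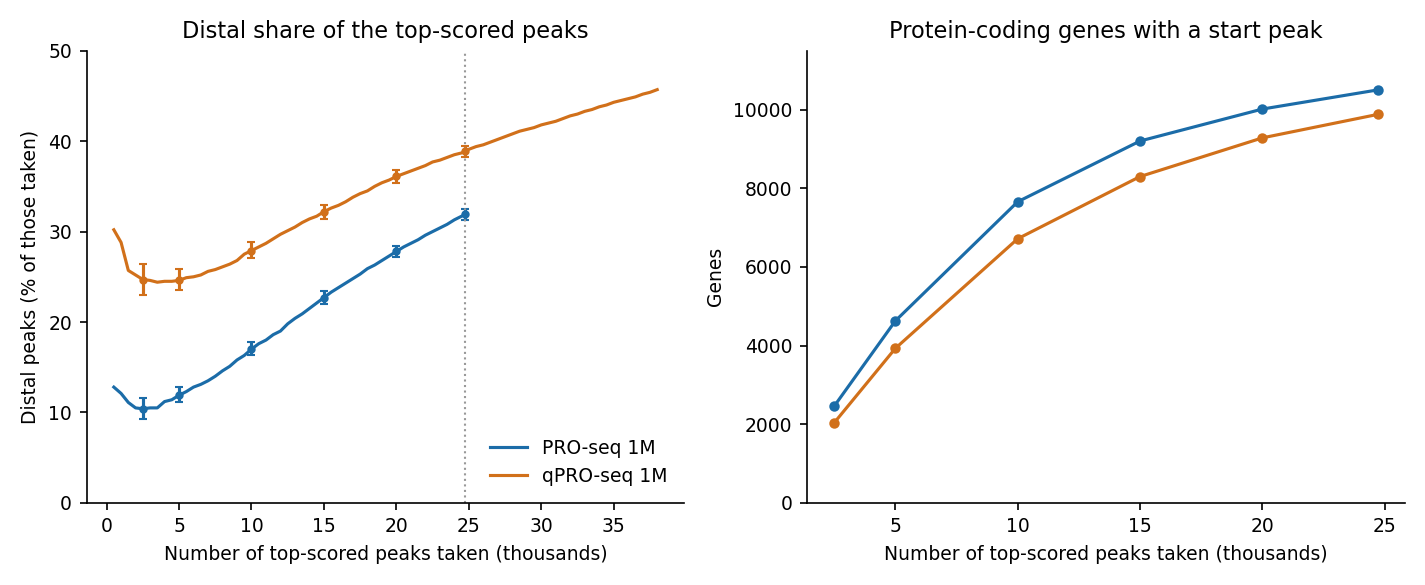
Left, share of distal peaks among the top-scored peaks of each list against the number taken, with 95% Wilson bars at 6 numbers and a dotted line at the length of PRO-seq 1M. Right, protein-coding genes with a start peak among the same peaks. The qPRO-seq 1M line lies above on the left and below on the right at each marked number.

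Peaks found in both lists moved in rank the same way. At equal length, 12856 pairs of peaks overlapped each other and no further peak. Of the 4363 pairs distal in both lists, 64.7% (63.3 to 66.1) stood higher in qPRO-seq 1M, by a median over all of these pairs of 2113 places. Of the 8329 start-near pairs, 39.3% (38.3 to 40.4) did, and the median was 985 places lower in qPRO-seq 1M. The long noncoding start-near pairs (519) lay between, with 48.9% (44.7 to 53.2) higher in qPRO-seq 1M.

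The peaks that had no counterpart differed in kind. At equal length 5113 PRO-seq 1M peaks and 5264 qPRO-seq 1M peaks had none. Of these, 41.5% were distal in PRO-seq 1M and 72.7% in qPRO-seq 1M, a difference of 31.2 points (29.3 to 33.0). Of the unmatched PRO-seq 1M peaks, 2783 (54.4%) did have a partner among the qPRO-seq 1M peaks scored too low to be kept. Unmatched distal qPRO-seq 1M peaks often stood alone: 2093 of 3827 (54.7%) lay over 10 kb from any PRO-seq 1M peak, against 875 of 2124 (41.2%) of unmatched distal PRO-seq 1M peaks from the equal-length qPRO-seq 1M list. Near starts, more of the unmatched peaks lay close to a peak of the other list: 785 of 2989 (26.3%) in PRO-seq 1M and 315 of 1437 (21.9%) in qPRO-seq 1M lay within 100 bp of one, against 186 (8.76%) and 174 (4.55%) of the distal ones.

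The 250k list was searched for the same unmatched peaks. It overlapped 18.4% (17.4 to 19.5) of those of PRO-seq 1M and 14.2% (13.3 to 15.2) of those of qPRO-seq 1M, a difference of -4.23 points (-5.66 to -2.81). Within distal peaks the shares were 12.9% and 11.5% (difference -1.33 points, -3.11 to 0.386), and within start-near peaks 22.4% and 21.4% (-1.05, -3.60 to 1.58). Within each kind the interval thus included 0. The overall difference was 0.504 points (-0.650 to 1.66), of the other sign, when a counterpart needed 50% of both peaks. The overlap with the 250k list then needed 50% of both peaks as well.

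Protein-coding genes were counted by their start peaks, over 19864 genes. As deposited, 694 genes had a start peak in qPRO-seq 1M alone (3.49% of the genes) and 376 the other way round (1.89%). At equal length the balance turned, with 315 genes (1.59%) found in qPRO-seq 1M alone and 938 (4.72%) in PRO-seq 1M alone, a difference of -3.14 points (-3.48 to -2.79). Of the 938 genes, 59.9% had a start peak in the full qPRO-seq 1M list and 376 had none. The 250k list had a start peak for 25.2% of the 938 and 23.2% of the 315 (difference -1.99 points, -7.17 to 3.65).

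Genes with no peak of the other full list within 1000 bp of a start numbered 284 for qPRO-seq 1M and 316 for PRO-seq 1M at equal length. The full qPRO-seq 1M list is the longer, so this condition is stricter for PRO-seq 1M genes and peaks, here and wherever it is used. The 5 top-scored on the qPRO-seq side were SLC34A1, KLK2, ABCA8, NPM3 and METTL7B. SLC34A1, a sodium-phosphate cotransporter of the kidney, had a peak of score 1.04 (percentile 93.9 of its list) at 177379381 to 177379760 on chromosome 5. NPM3 followed with 1.02 and KLK2, a kallikrein protease of the prostate, with 1.01, the latter at one of its internal annotated starts (chromosome 19, 50870361 to 50870790). The 250k list overlapped the peaks of these 3 genes. ABCA8, a lipid transporter, had a score of 0.963 and METTL7B 0.937, and neither was overlapped by the 250k list. The 5 on the PRO-seq side were PACS1, PKIG, ARRB2, GPRIN1 and CENPB. PACS1 scored 0.883 (percentile 76.9), PKIG 0.867, ARRB2 0.831, GPRIN1, a G protein partner in neurite growth, 0.790 and CENPB, which binds centromeric satellite DNA, 0.787. The 250k list overlapped none of these 5 peaks.

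Promoter types were compared at RefSeq starts, where 15418 protein-coding genes (80.4% of 19181 outside chromosome 8) could be matched to a window of 300 bases, 250 before and 50 after the start. A window counted as found when a peak lay within 500 bp of its start. As deposited, 2.97% of all windows were found in qPRO-seq 1M alone and 1.96% in PRO-seq 1M alone, and at equal length 1.34% and 4.51%. Sorted into 5 classes by GC content (quintiles), the windows showed a gradient in both versions of the lists. In the lowest quintile (GC 22.3% to 51.0%), 13.0% of windows were found in PRO-seq 1M and 15.7% in qPRO-seq 1M as deposited, a difference of 2.75 points (2.12 to 3.40). In the highest quintile (GC from 72.3%), 66.6% and 64.7% were found, a difference of -1.98 points (-2.88 to -1.08) although the qPRO-seq 1M list was the longer. At equal length the differences were 0.410 points (-0.168 to 0.992) in the lowest quintile, -0.423 in the next, -2.59 in the middle one, -4.81 in the next and -8.66 (-9.76 to -7.56) in the highest. Of the windows found in 1 list only, qPRO-seq 1M held 57.6% in the lowest quintile and 7.28% (4.86 to 10.8) in the highest.

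**Figure D3:**
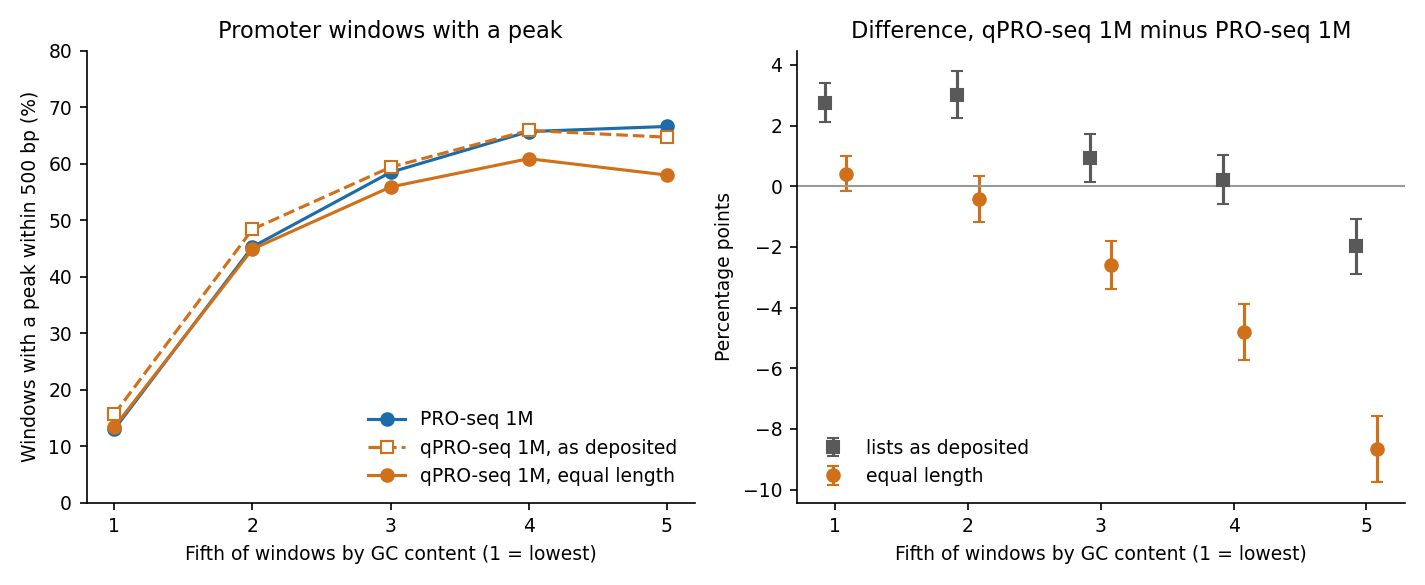
Left, RefSeq promoter windows with a peak within 500 bp, in percent, by GC quintile. Right, the difference between the lists in percentage points with 95% paired Newcombe bars, as deposited (squares) and at equal length (circles). At equal length the difference goes from 0.410 points in the lowest quintile to -8.66 in the highest.

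CpG classes gave the same order as the GC quintiles at equal length, but not as deposited. CpG-rich windows (observed over expected CG of at least 0.75 and GC of at least 55%) were found for 5501 of 7404 genes in PRO-seq 1M (74.3%) and 5492 in qPRO-seq 1M (74.2%) as deposited, and for 5102 (68.9%) at equal length, where 480 were found in PRO-seq 1M alone and 81 in qPRO-seq 1M alone. CpG-poor windows (observed over expected below 0.48) were found for 324 of 4577 genes (7.08%) and 411 (8.98%) as deposited, where 116 were found in qPRO-seq 1M alone against 29. At equal length they numbered 324 and 314, a difference of -0.218 points (-0.673 to 0.233). The remaining, intermediate windows differed by -2.33 points (-3.20 to -1.46) at equal length and the CpG-rich ones by -5.39 (-6.01 to -4.77). As deposited the difference was largest for intermediate windows, 2.27 points (1.41 to 3.13). It was 1.90 (1.39 to 2.43) for CpG-poor and -0.122 (-0.642 to 0.399) for CpG-rich ones. The class of the unmatched start-near peaks themselves could not be compared, because a RefSeq window lay within 500 bp for 68.8% of those of PRO-seq 1M and 50.3% of those of qPRO-seq 1M.

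Promoters shared with a neighbour differed less between the lists at equal length, but not as deposited. Divergent windows, with a RefSeq protein-coding start of the opposite strand within 1000 bp upstream, were found for 85.8% of 1462 genes in PRO-seq 1M and 84.1% in qPRO-seq 1M at equal length, a difference of -1.78 points (-2.93 to -0.651). Among the 13956 other windows it was -3.32 (-3.72 to -2.92). Restricted to CpG-rich windows the differences were -2.01 (-3.33 to -0.740) for divergent and -5.94 (-6.63 to -5.26) for other windows. As deposited the differences were 1.16 (0.155 to 2.19) for divergent and 0.996 (0.623 to 1.37) for other windows, and among CpG-rich ones 1.05 (-0.0242 to 2.16) and -0.315 (-0.896 to 0.266). Windows with TATAAA 15 to 40 bases before the start were found for 122 and 112 of 576 genes at equal length, a difference of -1.74 points (-3.21 to -0.315) against -3.23 (-3.62 to -2.84) for windows without it. As deposited the difference was 1.39 points (-0.0367 to 2.85) against 0.997.

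Short motifs were searched on both strands of the windows. The GC box GGGCGG, bound by SP and KLF factors, was in 58.0% of all windows. At equal length it was in 79.5% of the windows found in PRO-seq 1M alone and 57.5% of those found in qPRO-seq 1M alone. It was in 75.4% of those found in both lists and 40.1% of those found in neither. The difference between the windows found in 1 list alone was -22.0 points (-29.3 to -14.7), and as deposited also -22.0 (-28.0 to -15.4). The GATA letters AGATAA or TGATAA were in 5.60% for PRO-seq 1M alone and 17.4% for qPRO-seq 1M alone (difference 11.8 points, 6.83 to 17.7). They were in 12.3% of all windows, 6.33% of those found in both lists and 18.3% of those found in neither. The share for qPRO-seq 1M alone was thus near that of windows found in neither list. As deposited the shares for PRO-seq 1M alone and qPRO-seq 1M alone were 5.96% and 14.0%. The 2 sets of windows also differed in base composition, with medians of 69.7% GC for PRO-seq 1M alone and 59.0% for qPRO-seq 1M alone, and its part in the motif shares was not tested. CCAAT was in 25.2% and 36.9% as deposited (11.7 points, 5.00 to 18.1), but at equal length the interval of its difference included 0 (6.22 points, -1.03 to 13.8). The other 7 motifs had differences whose intervals included 0 in both versions: TGANTCA (AP-1), CCGGAAG (ETS), CCACACCC (a KLF site), GCATGCGC (from NRF1 sites), TGACGTCA (CRE), AAGATGGC (YY1) and CAGCTG or CAGATG (E-box). A match describes letters in the window and shows no binding.

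At promoters found by both protocols, the calls were placed alike, while the order of the lists in peaks per promoter differed between the versions. Among 7342 windows with a peak in both lists as deposited, PRO-seq 1M had 1.51 peaks per window and qPRO-seq 1M 1.70. At equal length, over 6948 windows, the order turned, with 1.52 and 1.43. qPRO-seq 1M had more peaks at 28.7% of windows and PRO-seq 1M at 12.3% as deposited, and 12.9% and 20.8% at equal length. Where each list had a single peak (2597 windows as deposited, 3170 at equal length), the qPRO-seq 1M centre was shifted along the gene by a median of 0 bp, with quartiles of -40 and 30 bp in both versions. Median widths were 550 and 570 bp as deposited, and 570 and 580 bp at equal length.

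Gene lists chosen by symbol were then set beside all protein-coding genes, which differed by 1.60 points as deposited and -3.14 at equal length. Of 24 lists, 13 had more members found in qPRO-seq 1M alone as deposited, 4 had fewer and 7 as many. At equal length 2 had more, 19 fewer and 3 as many, as among all genes. Some housekeeping lists were nearly complete in both, but the proteasome list had 31 of 39 genes (79.5%) in each as deposited. All 40 genes of DNA replication, the helicase, clamp and polymerase subunits that copy the genome, had start peaks in both lists as deposited. So had 32 of 35 aminoacyl-tRNA synthetases, which charge tRNAs, also at equal length. At equal length GINS2, of the replicative helicase, and the polymerase delta subunits POLD1 and POLD4 were found in PRO-seq 1M alone. Cytosolic ribosomal protein genes had 79 of 86 in each list as deposited. At equal length 5 of them were found in PRO-seq 1M alone, led by RPL38 (percentile 57.1) and RPLP1 (49.0), and RPS25 in qPRO-seq 1M alone (44.4). Mitochondrial ribosomal protein genes had 71 of 78 in each list as deposited, and at equal length MRPL43 (54.7) and MRPL41 (50.2) led 6 found in PRO-seq 1M alone, while MRPL45 (69.4) and MRPS22 (56.6) were found in qPRO-seq 1M alone. Complex I of the respiratory chain was a list with more members in qPRO-seq 1M at equal length: 41 of 47 in PRO-seq 1M and 42 in qPRO-seq 1M, NDUFAF3 in the first alone and NDUFAB1 and NDUFA8 in the second alone. Olfactory receptors were the other, with OR8D1 added in qPRO-seq 1M to the 1 of 386 genes in PRO-seq 1M. Keratin genes, of epithelia and hair, had 4 of 149 in each.

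Other lists held few changes. Of 87 splicing factors 73 had a start peak in PRO-seq 1M and 70 in qPRO-seq 1M at equal length, without PRPF39, SNRPG and SF3B6. Of 98 genes listed by symbol under RNA polymerases and initiation factors the numbers were 81 and 78. GTF2IRD2 (54.8) and POLR3F (48.6) were the best-scored found in PRO-seq 1M alone, and MED27 (60.8) and GTF2A2 (46.4) in qPRO-seq 1M alone. Of 22 genes of heme and iron handling the numbers were 20 and 18. The list of chaperone and heat shock symbols had 69 and 66 of 90, with HSPBAP1 (92.3) found in qPRO-seq 1M alone and DNAJB14 (40.8) in PRO-seq 1M alone. The list of immediate early and AP-1 symbols had 36 and 34 of 43, without ATF4 and MAFK. The ion channels, with 36 and 32 of 169, differed in both directions: KCNE3 (67.1) and KCNG1 (63.6) led 9 found in PRO-seq 1M alone, and KCNN2 (68.9) and KCNMB4 (65.2) led 5 found in qPRO-seq 1M alone. Collagen and matrix genes had 18 and 16 of 98. Their basement membrane laminins were found on both sides, LAMC1 and LAMA5 in PRO-seq 1M alone and LAMA4 and LAMA2 in qPRO-seq 1M alone. The peaks of LAMA4 (112139061 to 112139520) and LAMA2 (129490521 to 129490780), both on chromosome 6, lay at internal annotated starts of these genes. HOX genes had 7 and 6 of 39, and all 23 intervals of the lists outside the solute carriers included 0.

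The cell cycle list had the lowest equal-length difference of the 24. Of 37 cyclins and CDKs, 31 had a start peak in PRO-seq 1M and 27 in qPRO-seq 1M at equal length. The 4 found in PRO-seq 1M alone were CCND2 (percentile 54.6), a G1 cyclin, CDK4 (40.1), its kinase, CDK14 (39.4) and CDK20 (4.68). As deposited the numbers were 31 and 29, and CCND2 and CDK14 had a start peak in qPRO-seq 1M too. For CDK4 and CDK20, which had none there, the 250k list had a start peak (scores 0.551 and 0.537). The equal-length difference of -10.8 points had an interval of -23.2 to 0.836. Solute carriers, the largest family of membrane transporters, were the 1 list whose equal-length interval lay below 0: 190 of 374 genes were found in PRO-seq 1M and 170 in qPRO-seq 1M, with 25 in the first alone and 5 in the second alone (-5.35 points, -8.19 to -2.48). The top members were SLC4A8 (66.2) and SLC43A3 (64.9) on the PRO-seq side and SLC34A1 (93.9) and SLC12A8 (70.2) on the other. This interval included the -3.14 points of all genes.

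The 3 lists whose interval lay above 0 as deposited were those of zinc finger, histone and immune signalling genes. The first pair of these intervals included the 1.60 points of all protein-coding genes, and that of the immune list began just above it. Of 537 C2H2 zinc finger genes, mostly DNA-binding repressors that arose in clusters, 368 had a start peak in PRO-seq 1M and 392 in qPRO-seq 1M, with 44 found in the latter alone and 20 in the former (4.47 points, 1.55 to 7.39). The excess lay on chromosome 19, where their largest clusters are: 150 of 253 genes in PRO-seq 1M and 175 in qPRO-seq 1M (9.88 points, 4.75 to 14.9), against 218 and 217 of 284 elsewhere. The other 1219 protein-coding genes of chromosome 19 differed by 1.48 points (0.0328 to 2.92). At equal length the zinc finger genes of chromosome 19 numbered 150 and 153 (1.19 points, -3.69 to 6.05), while the other genes there differed by -4.84 points (-6.48 to -3.19). Over all chromosomes, ZNF284 (percentile 80.7) and ZNF675 (79.9), both on chromosome 19, led the qPRO-seq side. ZNF451 (87.1), on chromosome 6, and ZNF112 (63.2), on chromosome 19, led the PRO-seq side. Clustered zinc finger genes are similar in sequence, so the placement of short reads among them is uncertain.

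Replication-dependent histone genes, which are used in S phase, had start peaks at 44 of 71 in PRO-seq 1M and 50 in qPRO-seq 1M as deposited (8.45 points, 0.396 to 16.4), and at 42 in qPRO-seq 1M at equal length, with HIST1H3H (46.8) the best-scored found in PRO-seq 1M alone and HIST2H3C (37.8) found in qPRO-seq 1M alone. Histone genes are also alike, with the same uncertainty. Their promoter windows were AT-rich, with a median GC of 43.7% against 62.7% over all windows. Genes of interleukins, chemokines and their receptors had 42 and 53 of 199 as deposited, 13 in qPRO-seq 1M alone and 2 in PRO-seq 1M alone (5.53 points, 1.65 to 9.55). At equal length they had 42 and 37. The top ones then were IL11RA (56.5) and IL17RB (55.2), both receptor chains, on the qPRO-seq side and CCR7 (64.7), a homing receptor of lymphocytes, and IL20RB (47.6) on the PRO-seq side.

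**Figure D4:**
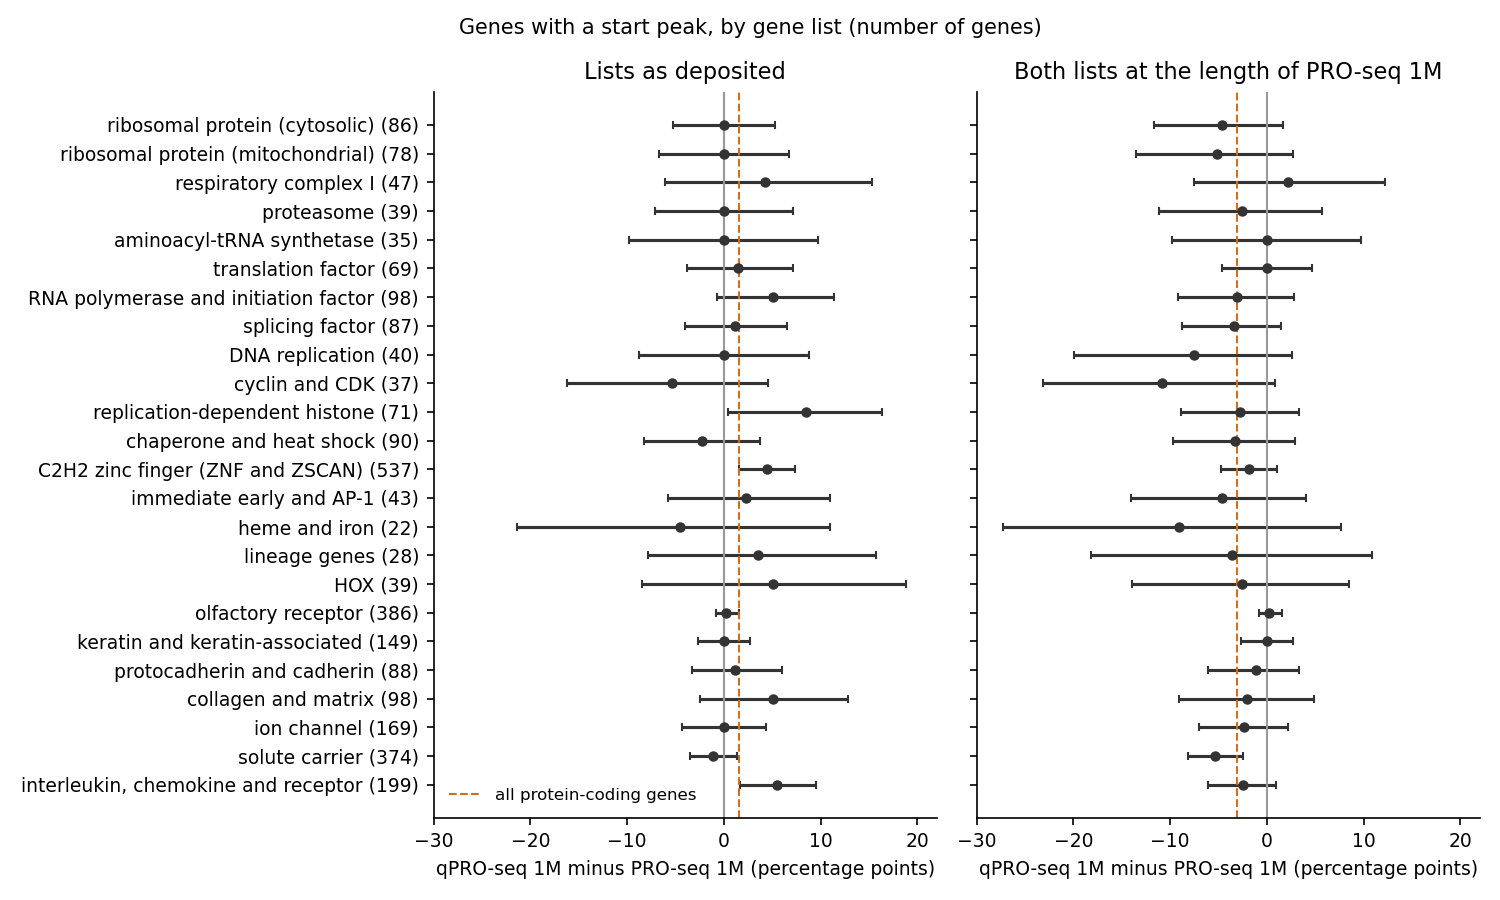
Difference between qPRO-seq 1M and PRO-seq 1M in the percent of genes that have a start peak, in percentage points with 95% paired Newcombe bars, for 24 gene lists with their numbers of genes. The dashed line marks all protein-coding genes (1.60 points as deposited, -3.14 at equal length). As deposited 3 bars lie above 0, and at equal length 1 lies below.

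The genes that define the erythroid and myeloid state were looked at one by one. Of these genes, 22 had a start peak in both full lists and 5 in neither (BCL11A, ERG, FLI1, HBA1 and HBA2). A missing peak does not show that a gene is inactive. Places within the first 24707 can be compared between the lists. For 20 genes found in both at equal length, the best start peaks made up 17 distinct overlapping pairs, since HBE1 and HBG2 shared 1 and the peaks of GFI1B and ZBTB7A differed between the lists. Of the 17 pairs, 6 (35.3%) stood higher in qPRO-seq 1M. This share is near the 38.4% of all 7572 protein-coding start-near pairs, so the lineage genes are described here one by one and not as a group that differs.

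HBE1 and HBG2, an embryonic and a fetal globin gene, shared 1 peak, at place 1979 in PRO-seq 1M and 1415 in qPRO-seq 1M, through an annotated start far upstream of both. The myeloid factor SPI1 was near the top of both, at place 80 in PRO-seq 1M and 451 in qPRO-seq 1M. Like most start-near pairs, those of several blood regulators stood lower in qPRO-seq 1M. TAL1 was at place 1463 in PRO-seq 1M and 9909 in qPRO-seq 1M, RUNX1 at 2006 and 6860, and GATA1, the master factor of red cells, at 11600 and 20270. EPOR, the erythropoietin receptor, was at 3955 and 7421. The best peaks of GFI1B, a repressor of blood development, lay at different starts, 132944551 to 132945290 on chromosome 9 in PRO-seq 1M (place 391) and 132978181 to 132978900 in qPRO-seq 1M (place 3965), and their places are not compared. Those of ZBTB7A, a repressor of fetal globin, did not overlap either (places 4337 and 10517). LMO2, a partner of TAL1, lay at place 21593 in PRO-seq 1M and 37077 in qPRO-seq 1M, outside the equal-length list. HBZ, the embryonic alpha-like globin, was at 24129 and 26043. In the other direction, HBG1, a fetal globin gene, was at 20765 in PRO-seq 1M and 12608 in qPRO-seq 1M, MYB at 5376 and 3026, LYL1 at 8177 and 6464, and HEMGN, an erythroid nuclear protein, at 8391 and 6664. HBG1 has a near-identical neighbour, HBG2, so reads there may be placed at either. KLF1, an erythroid activator, differed little (14002 and 14104).

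**Figure D5:**
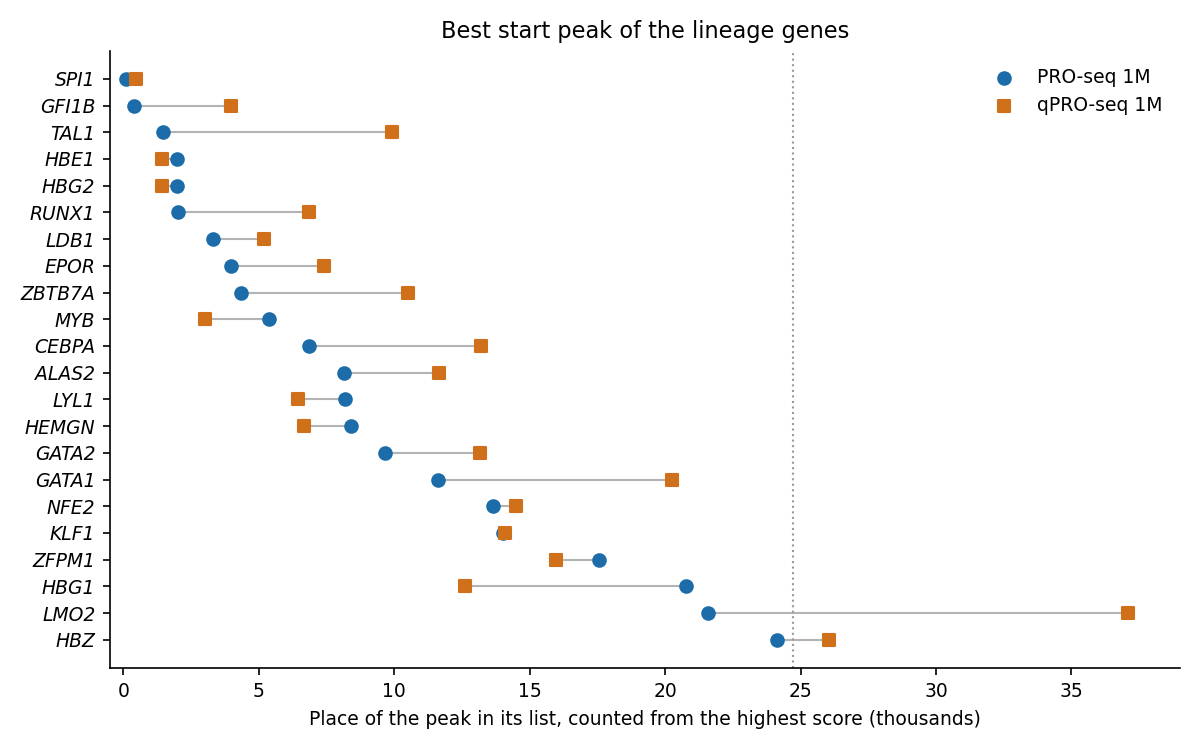
Place of the best start peak of the 22 lineage genes found in both lists, counted from the highest score, with a dotted line at the length of PRO-seq 1M. Points to the left are stronger calls. TAL1, RUNX1 and GATA1 lie further right in qPRO-seq 1M and HBG1 further left, and the points of GFI1B and ZBTB7A are different peaks in the 2 lists.

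Long noncoding RNA genes were counted where no start lay within 1000 bp of a protein-coding start (11660 genes). As deposited, 704 had a start peak in PRO-seq 1M and 977 in qPRO-seq 1M, with 46 and 319 found in 1 list alone (2.34 points, 2.03 to 2.67). At equal length 737 had one in qPRO-seq 1M, with 112 found in PRO-seq 1M alone and 145 in qPRO-seq 1M alone (0.283 points, 0.0124 to 0.555). The interval included 0 when both lists had the length of the 250k list (0.189 points, -0.0518 to 0.431) and after merging of near peaks (0.197, -0.0788 to 0.474). Over all 14934 long noncoding RNA genes, those beside protein-coding starts included, the sign was the opposite at equal length, with 2344 and 2238 genes (-0.710 points, with an interval that lay below 0). Intergenic ones (lincRNA) had 452 and 485 of 6917 at equal length (0.477 points, 0.109 to 0.849), and antisense ones 165 and 168 of 3415. Genes with no peak of the other full list within 1000 bp numbered 120 for qPRO-seq 1M and 34 for PRO-seq 1M, under the condition that is stricter for PRO-seq 1M. The top 3 for qPRO-seq 1M were AL160408.3 (score 0.949), AC009117.2 (0.914) and LINC01990 (0.848), and the 250k list overlapped none of their peaks. The top 3 for PRO-seq 1M were AC140725.1 (0.752), AC125232.2 (0.589) and DGUOK-AS1 (0.553), and the 250k list overlapped all 3. Over all long noncoding RNA genes of this kind found in 1 list alone, the 250k list had a start peak for 16 of 112 (14.3%) of PRO-seq 1M and 14 of 145 (9.66%) of qPRO-seq 1M, a difference of -4.63 points (-13.2 to 3.30).

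Small RNA genes and pseudogenes were counted under the same condition. Small RNA genes with a start peak numbered 130 of 6250 in PRO-seq 1M and 200 in qPRO-seq 1M as deposited, and 147 in qPRO-seq 1M at equal length (0.272 points, 0.0228 to 0.530). Within them, 2 genes annotated as snRNA were found in PRO-seq 1M alone and 10 in qPRO-seq 1M alone at equal length. Several of them are named as pseudogene copies. The snoRNA genes, most of which guide RNA modification, had 2 and 9, and microRNA genes 11 and 9. These numbers count genes and not peaks. SNORA44 and the SNORA16A entries, adjacent on chromosome 1, had the same peak percentile (79.4). The condition left out only genes near protein-coding starts, so starts of long noncoding host genes may lie nearby. Pseudogenes had 289 and 301 of 14411 (0.0833 points, -0.0641 to 0.232). Many snRNA genes and pseudogenes have close copies elsewhere, which makes these calls uncertain.

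Distal peaks found by one protocol alone were counted by setting. Among equal-length peaks with no peak of the other full list within 1000 bp, 1461 qPRO-seq 1M peaks and 287 PRO-seq 1M peaks were intronic, 1198 and 252 intergenic within 50 kb of a start, and 181 and 24 intergenic beyond 50 kb. Again the condition is stricter for PRO-seq 1M. The top intronic qPRO-seq 1M peaks lay in the long noncoding gene AL590385.2 near FCGR3A (chromosome 1, 161566001 to 161566670, score 1.17), in ATG16L1, an autophagy gene (chromosome 2, 233220941 to 233221670, score 1.16), and in DYDC2 (chromosome 10, 80358601 to 80359360, score 1.16). The 250k list overlapped the first pair. The top intergenic ones within 50 kb of a start lay on chromosome 13 (28574571 to 28575200, score 1.15, with FLT1, a VEGF receptor, the nearest protein-coding start at 79426 bp), chromosome 2 (107743251 to 107744090, score 1.12) and chromosome 7 (159197241 to 159197860, score 1.11). The 250k list overlapped the first pair here too. Beyond 50 kb, the top qPRO-seq 1M peaks lay on chromosome 8 (90167651 to 90168740, score 1.13), which the 250k list overlapped, on chromosome 4 (31658931 to 31659480, 733218 bp from the start of PCDH7, score 1.02), which it overlapped too, and on chromosome 7 (86441021 to 86441710, 202204 bp from the start of GRM3, score 1.01), which it did not.

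On the PRO-seq side, the top intronic peaks lay in E2F2, a cell cycle factor (chromosome 1, 23528161 to 23528690, score 0.792), in CBX5, a heterochromatin protein gene (chromosome 12, 54265831 to 54266370, score 0.743), and in TEN1 (chromosome 17, 75983431 to 75983980, score 0.725). The 250k list overlapped the peak in CBX5 alone of these 3. The top intergenic ones within 50 kb lay 10792 bp from CHAC1 (chromosome 15, 40941691 to 40942170, score 0.973) and 11551 bp from TM9SF2 (chromosome 13, 99434211 to 99434760, score 0.890), both overlapped by the 250k list, and on chromosome 10 (32139371 to 32139670, score 0.754), which it did not. Beyond 50 kb they lay on chromosome 2 (88291091 to 88291440, score 0.607, and 37535941 to 37536420, score 0.603) and chromosome 3 (5659081 to 5659360, score 0.561), and the 250k list overlapped none of them.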

How the data were processed

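Run-on libraries of 3 groups of K562 cells were represented by 3 deposited dREG peak lists, each naming both replicates of its group per the labels. The submitters' processing notes name fastp 0.20.0, UMI-tools, Bowtie2 2.3.5.1 and deepTools 3.1.3 and build hg38 (GRCh38). The dREG version and the pooling of replicates are not given in the sources used here. The authors deposited for each peak a score without unit, used here for ranking, a p-value, used only in an alternative, and a centre, which lay outside its interval for 34 PRO-seq 1M and 57 qPRO-seq 1M peaks. No counts per peak were analysed, so depth is unknown.

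Starts and biotypes came from GENCODE release 29, promoter windows from RefSeq (matched by gene ID or symbol, start within 10 kb of the gene), both on GRCh38. Shares carry Wilson and differences Newcombe 95% intervals, paired for genes and windows (Python 3, pandas, numpy). No test was possible with 1 list per group. Interval functions were tested on simulated lists. Genes were named by rule: the 5 protein-coding and 3 long noncoding genes and 3 distal peaks per class each way with the best score and no peak of the other full list within 1000 bp, up to 4 members per gene list found in 1 list only, and the lineage genes. A few of these are not reported here. Where a listed group is described in full, fewer members were named. The members, gene lists and rules were chosen with earlier results of these data known. Alternatives were the full lists, both lists at the length of the 250k list, p of 0.01 or less, merging within 500 bp, a 1000 bp window, and other rules for a counterpart. Chromosome 8 was left out of the sequence windows.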

Additional observations from a re-analysis of the deposited data

Results flagged for a closer look

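Sequences outside chromosomes 1 to 22 and X entered no comparison but held peaks too. PRO-seq 1M had 75 of them. qPRO-seq 1M had 220. Their origin was not tested.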

How the results depend on the processing

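No paired analysis was possible because the 2 replicates of each group share 1 peak list, and for the same reason no replicate could be left out. Differences are qPRO-seq 1M minus PRO-seq 1M in percentage points. Of 38 alternative values, 20 lay inside the main value's interval, 16 outside it and 2 changed sign. The cause was not tested, except that lengthening or shortening the lists changes them by construction. With full lists the values were 1.60 for protein-coding genes, of the opposite sign, 2.34 for long noncoding RNA genes, 13.9 for the distal share, 27.7 for the distal share of unmatched peaks, -0.249 for their overlap with the 250k list, -1.98 for the highest GC quintile and 2.75 for the lowest. With both lists at the length of the 250k list they were -4.55 for protein-coding genes, 9.25 and 40.1 for the distal shares, -13.0 for the overlap with the 250k list and -10.7 for the highest GC quintile. Merging gave -3.95 for protein-coding genes and 5.20 and 28.2 for the distal shares. Overlap of 50% of both peaks gave 22.5 for the distal share of unmatched peaks and 0.504, of the opposite sign, for the 250k overlap. A counterpart within 500 bp gave -6.13 for the latter. In these 2 alternatives the same rule also set what counted as overlap with the 250k list. The long noncoding RNA difference was 0.189 (-0.0518 to 0.431) at the length of the 250k list and 0.197 (-0.0788 to 0.474) after merging, intervals that include 0. The lowest GC quintile gave 0.726 (0.150 to 1.31) with a window of 1000 bp, an interval above 0. The GC quintiles and their alternatives were chosen after seeing the data. The CpG class of unmatched start-near peaks was void under every setting run, with at most 74.9% of peaks having a window. Unknown depth and 1 list per group limit all differences.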

Other observations

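At equal length, qPRO-seq 1M had fewer start-near peaks than PRO-seq 1M on 23 of 23 chromosomes, with ratios from 0.828 (chromosome 9) to 0.961 (chromosome 6). It had more distal peaks on 22 of 23, up to 1.46 times on chromosome 21, and the exception was chromosome 19 at 0.973. Chromosome 19 also had the lowest ratio of all peaks, 0.870 (1693 and 1473 peaks), with 423 PRO-seq 1M peaks and 229 qPRO-seq 1M peaks without a counterpart. Some of the microRNA genes found in 1 list alone at equal length are known from blood: MIR223, of myeloid cells, and MIR146B had a start peak in qPRO-seq 1M alone, and MIR148A in PRO-seq 1M alone. MIR148A did have a start peak in the full qPRO-seq 1M list. These 3 were chosen after their values were seen.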
